A study of Mus musculus with 10 samples.

Results

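Interferon-stimulated genes are the genes that a cell switches on when it senses an interferon. A set of 39 of them was followed here in myofibroblastic cancer-associated fibroblasts (myCAFs) of mouse pancreatic tumours that had been sorted by the surface protein CD90. The set was a named list of genes with no cutoff on measured values, but it was chosen with earlier results of these data known. It holds 39 of the 48471 genes to which transcripts could be assigned, and 38 of them were among the 15378 genes with enough reads to be tested. It was divided by textbook knowledge into 22 type I response genes, 7 gamma-type response genes and 10 genes that both kinds of interferon induce, called shared below.

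CD90-negative myCAFs were set against CD90-positive myCAFs, with 5 libraries of each. Both came from pancreatic ductal adenocarcinomas that formed in male C57BL/6J mice after KPC T-LOH organoids were placed into the pancreas. The tumour cells of both groups came from these organoids, and the sorted fibroblasts belong to the host. The labels give neither the age of the mice nor the markers of the myCAF gate apart from CD90. Each of 5 tumour pools gave a library of both fractions, and the titles name the same animals for both. The titles name 11 animals in all, against 5 mice in the design text, so that n counts pools and some pools hold several animals. RNA-seq libraries were prepared from total RNA by a stranded protocol for small RNA amounts.

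Interferons of type I bind the receptor pair Ifnar1 and Ifnar2, whereas interferon gamma binds Ifngr1 and Ifngr2. Both receptors activate Janus kinases and STAT proteins. The type I receptor mainly drives a complex with Stat2 and Irf9 that binds interferon-stimulated response elements, and the gamma receptor mainly acts through gamma-activated sites and induces Irf1. In fibroblasts, the products of these genes restrict viruses and recruit immune cells, and pancreatic tumours are known to hold fibroblasts with interferon-response programmes.

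Library totals were 33.3 to 47.7 M (mega) estimated counts in CD90-negative and 11.7 to 38.2 M in CD90-positive libraries. Of the counts assigned to genes, mitochondrial ribosomal RNA took 35.6 to 84.4% in CD90-negative and 10.5 to 44.8% in CD90-positive libraries. Nuclear protein-coding genes held 3.71 to 19.8 M in CD90-negative and 4.57 to 28.5 M in CD90-positive libraries. Thy1, which encodes CD90, averaged 8.47 ± 5.18 counts per M of the scaled library (CPM) in CD90-negative and 89.1 ± 29.5 CPM in CD90-positive libraries (SD, n = 5 each). Summed markers of fibroblasts were at 4061 to 20470 CPM in CD90-negative and 32461 to 54048 CPM in CD90-positive libraries, and 9 of the 10 were called lower. Summed cancer epithelial markers were at 716 to 2926 CPM in CD90-negative and 181 to 1606 CPM in CD90-positive libraries, with 6 of 10 called higher. The part of these differences in the values below was not tested, and fewer cells of a type and less RNA per cell cannot be told apart in bulk libraries.

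The promoters of the genes were examined for the sequence elements that the interferon pathways use. RefSeq promoter windows of the build GRCm38.p6, from 250 bases before to 50 bases after an annotated start, were found for 32 of the 39 genes. Usp18, Zbp1, Mx1, Parp9, Rtp4, Ifi27 and Parp14 had none in the table used. The genes had 37 windows in all. In 25 of these, the bases just after the start were found in a GENCODE M21 transcript of the gene. The Gbp7 window printed below was not among those 25, so its distance to the start used is uncertain. The response element was searched as GAAA, NN and GAAA in a row, where N is any base, and the gamma-activated site as TTCNNNGAA, both on either strand, and the motifs may overlap each other. The response element was present in 16 of the 32 (50%, exact 95% binomial interval 31.9 to 68.1%), against 3.99% of the 27025 genes with a window. With a C required after the second GAAA, it was present in 14 (43.8%), against 0.944% of all genes. The gamma-activated site was present in 9 (28.1%), against 9.55% of all genes. The windows of 5 genes are shown in the direction of transcription, chosen because the results below turn on these genes and because they span dense, mixed and absent motifs; capitals mark the response elements and gamma-activated sites. The Isg15 window lies at chr4:156200769-156201068 on the minus strand, that of Ifitm3 at chr7:141010695-141010994 on the minus strand, that of Gbp3 at chr3:142559794-142560093 on the plus strand, that of Gbp7 at chr3:142530086-142530385 on the plus strand and that of Samd9l at chr6:3399522-3399821 on the minus strand.
Isg15: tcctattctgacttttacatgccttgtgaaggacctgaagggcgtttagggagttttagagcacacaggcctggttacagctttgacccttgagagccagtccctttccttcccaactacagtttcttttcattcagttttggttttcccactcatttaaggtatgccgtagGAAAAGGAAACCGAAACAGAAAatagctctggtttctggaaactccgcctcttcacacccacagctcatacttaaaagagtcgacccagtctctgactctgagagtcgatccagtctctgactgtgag
Ifitm3: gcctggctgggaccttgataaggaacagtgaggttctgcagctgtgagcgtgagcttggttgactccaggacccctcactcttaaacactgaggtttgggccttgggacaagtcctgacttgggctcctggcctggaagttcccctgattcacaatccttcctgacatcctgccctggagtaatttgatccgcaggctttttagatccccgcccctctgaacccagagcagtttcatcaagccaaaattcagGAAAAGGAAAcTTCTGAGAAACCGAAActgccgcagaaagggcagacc
Gbp3: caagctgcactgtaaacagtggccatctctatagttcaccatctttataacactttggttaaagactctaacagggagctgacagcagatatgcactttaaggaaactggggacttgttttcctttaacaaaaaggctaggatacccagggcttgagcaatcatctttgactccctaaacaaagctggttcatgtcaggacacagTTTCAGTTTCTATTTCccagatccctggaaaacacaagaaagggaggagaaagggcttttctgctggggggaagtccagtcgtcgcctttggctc
Gbp7: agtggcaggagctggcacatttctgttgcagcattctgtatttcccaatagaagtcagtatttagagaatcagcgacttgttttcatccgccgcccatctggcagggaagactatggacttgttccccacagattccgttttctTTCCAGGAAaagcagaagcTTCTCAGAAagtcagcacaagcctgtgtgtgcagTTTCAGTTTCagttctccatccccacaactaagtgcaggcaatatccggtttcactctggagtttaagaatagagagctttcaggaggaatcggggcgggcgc
Samd9l: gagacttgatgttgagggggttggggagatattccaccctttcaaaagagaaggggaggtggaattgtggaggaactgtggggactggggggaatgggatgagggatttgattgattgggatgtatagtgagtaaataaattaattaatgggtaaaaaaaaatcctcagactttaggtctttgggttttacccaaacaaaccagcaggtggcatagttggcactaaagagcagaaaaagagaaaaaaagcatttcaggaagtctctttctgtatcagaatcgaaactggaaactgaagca
The Isg15 window holds 3 response elements that run into each other, whereas the Samd9l window holds neither motif. In Ifitm3, 2 response elements lie just after the start with 1 gamma-activated site between them, which overlaps the second element. The Gbp3 window holds 2 overlapping response elements, and the Gbp7 window holds 1 response element after 2 gamma-activated sites.

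By group, the response element was found for 9 of 18 type I genes, 6 of 7 gamma-type genes and 1 of 7 shared genes with a window. The gamma-activated site was found for 4 type I, 3 gamma-type and 2 shared genes. Both motifs were found for 6 of the 32 genes and neither for 13. A match describes these letters in this stretch and is not a measured binding site.

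**Figure D1:**
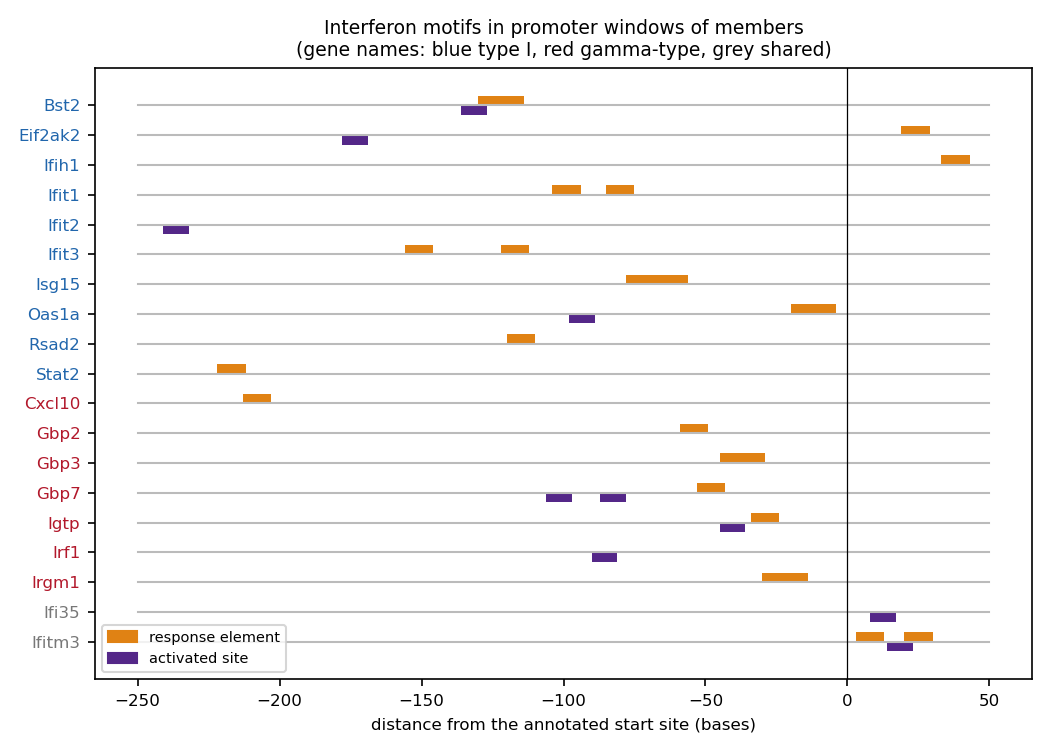
Positions of response elements (orange, upper bars) and gamma-activated sites (purple, lower bars) in the promoter windows that hold at least 1 motif, as distance in bases from the annotated start. Gene names are blue for type I, red for gamma-type and grey for shared genes, and 6 of the 7 gamma-type genes carry a response element.

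Most interferon-stimulated genes were lower in CD90-negative than in CD90-positive myCAFs, but few single genes passed the test. The fitted log2 fold, CD90-negative over CD90-positive, was negative for 33 of the 38 tested genes, against 48% of all genes tested. Its median was -0.88, against 0.04 over all genes. With edgeR's quasi-likelihood test and Benjamini-Hochberg adjustment over all genes at a threshold of 0.05, 5 genes were called lower (13.2%), where 7.05% of all genes were. These were Sp100 (ENSMUSG00000026222, chromosome 1), Ifitm3 (ENSMUSG00000025492, chromosome 7), Ifi27 (ENSMUSG00000064215, chromosome 12), Gbp3 (ENSMUSG00000028268, chromosome 3) and Gbp7 (ENSMUSG00000040253, chromosome 3). A single gene, Samd9l (ENSMUSG00000047735, chromosome 6), was called higher (2.63%), where 5.83% of all genes were. At an unadjusted p under 0.05, 14 of the 38 tested genes were lower and 2 of the 38 higher. Over all genes, 14% were lower and 12.9% higher. DESeq2, which called more genes throughout, called 14 of the 38 lower and 1 of the 38 higher. Over all genes, it called 11.8% lower and 10.6% higher.

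The pools showed the same direction to different degrees. In all 5 pools, 18 of the 38 genes were lower (47.4%), against 14.5% of all genes, and 2, Samd9l and Lgals3bp, were higher (5.26%), against 13.5%. The median log2 difference of the set was -0.99, -1.09, -0.16, -0.67 and -1.36 in pools 1 to 5, while that of all genes lay between -0.06 and 0.11. Pool 3 had the smallest difference in every gene group. Its CD90-negative library also had the smallest share of mitochondrial ribosomal RNA (35.6%) and the highest fibroblast marker sum (20470 CPM) of the CD90-negative libraries, and the part of these in its smaller difference was not tested. The values of the 2 groups did not overlap for 5 genes, Isg15, Ifi27, Gbp3, Gbp7 and Sp100 (13.2%), all lower, where 4.62% of all genes were lower without overlap. For 0 genes of the set were the CD90-negative values all the higher ones, where 3.32% of all genes were. The call of every one of the 6 genes was lost without pool 1 and without pools 4 and 5 together. It was also lost with the mitochondrial ribosomal RNA share as a covariate. These settings called fewer of all genes too, against 7.05% lower and 5.83% higher above. Without pool 1, 2.38% of all genes were called lower and 1.99% higher, and without pools 4 and 5, 1.14% and 2.21%. With the covariate, 0 of all genes were called.

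**Figure D2:**
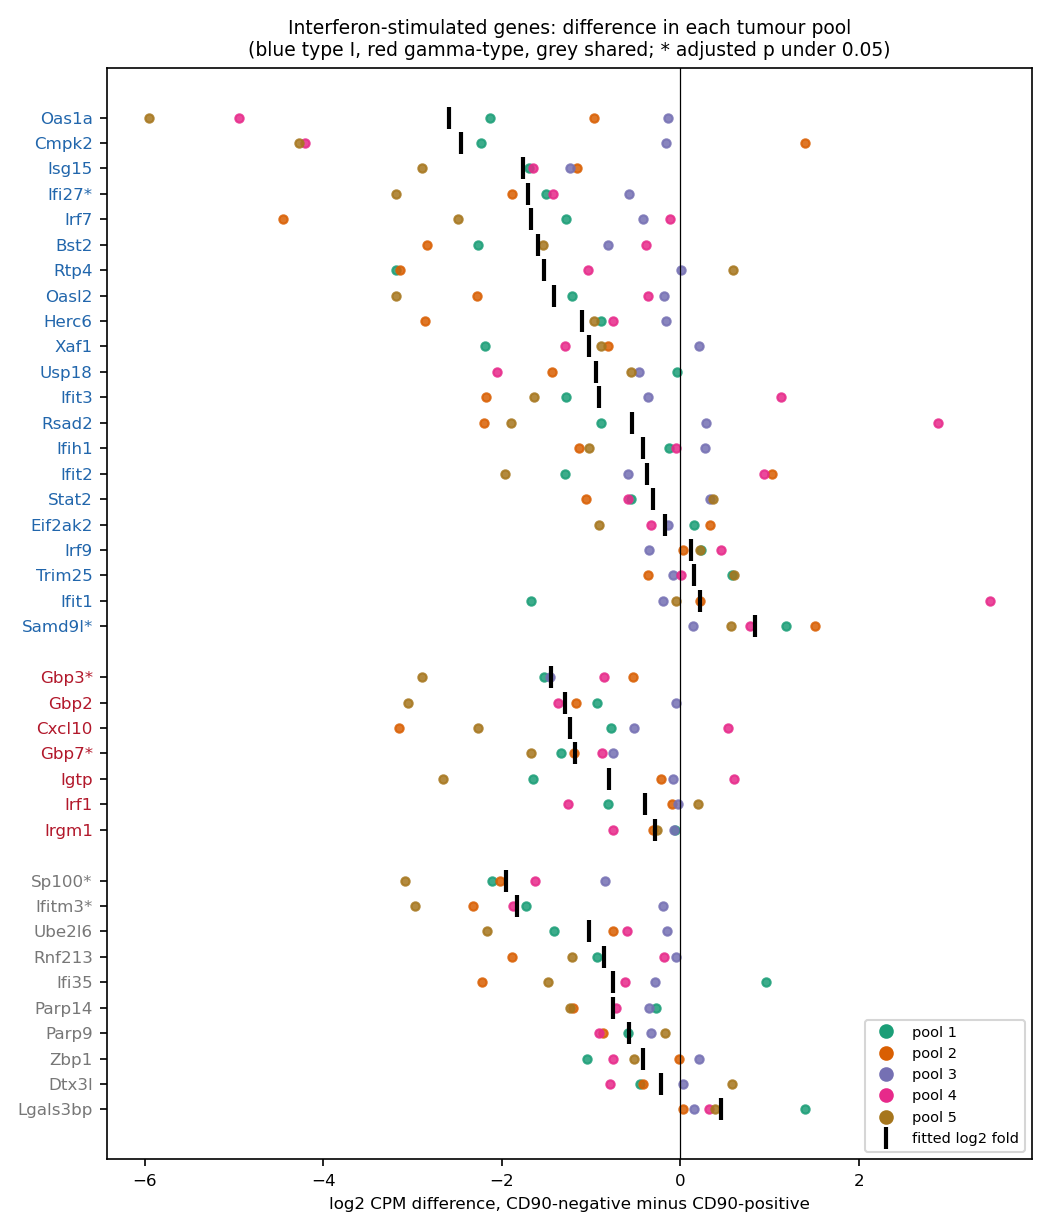
Log2 difference in CPM, CD90-negative minus CD90-positive, of each gene in each of the 5 tumour pools, with the groups of genes separated. Most points lie below 0, with 18 genes lower in all 5 pools and Samd9l and Lgals3bp higher in all 5.

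The direction was shared across abundance. Among the 16 genes with a mean log2 CPM between 1 and 3, all 16 had negative folds and the median was -1.02, against 0.04 over all genes in that range. Among the 18 genes at 3 or above, 13 were negative and the median was -0.41, against 0.01. The 4 genes below 1 were all negative, but they are supported by few reads. Mx1, a gene of the dynamin-like GTPase family, was too low to be tested. It was listed at 0 CPM in the CD90-negative libraries of pools 1, 2 and 4 and in the CD90-positive libraries of pools 3 and 5, and its highest value was 1.51 CPM, in pool 5 of the CD90-negative fraction.

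None of the 4 transcription factors of the response passed the edgeR test as reported here. Irf7, which amplifies type I interferon production, had 3.92, 0.704, 5.09, 4.70 and 5.28 CPM in the CD90-negative libraries of pools 1 to 5, against 9.64, 16.7, 6.83, 5.10 and 30.1 CPM in the CD90-positive libraries. It was lower in all 5 pools, with a log2 fold of -1.68 ± 0.64 (SE) and an edgeR adjusted p of 0.131, although DESeq2, limma-voom and edgeR without the filter on low counts called it lower. Irf1, the factor that relays interferon gamma signals, averaged 33.1 ± 10.8 CPM in CD90-negative and 41.8 ± 4.15 CPM in CD90-positive libraries. Stat2 and Irf9, partners in the type I complex, had log2 folds of -0.30 and 0.11, with edgeR adjusted p values of 0.521 and 0.816.

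Of the genes that attach, remove or resemble ubiquitin, none passed the edgeR test as reported here. Isg15, a ubiquitin-like protein that is attached to other proteins, had 1.24, 2.48, 1.05, 0.854 and 0.554 CPM in the CD90-negative libraries of pools 1 to 5, against 4.15, 5.62, 2.55, 2.82 and 4.52 CPM in the CD90-positive libraries. The groups did not overlap, since the highest CD90-negative value, in pool 2, lay just under the lowest CD90-positive one, in pool 3. The log2 fold was -1.76 ± 0.55 (SE), with an edgeR adjusted p of 0.0657. Ube2l6, the enzyme that conjugates Isg15, and Herc6, the mouse ligase for it, were lower in all 5 pools with log2 folds of -1.02 and -1.10 (edgeR adjusted p of 0.103 and 0.139). Usp18, which removes Isg15 and dampens the type I receptor, had a log2 fold of -0.94 (edgeR adjusted p of 0.513) at values under 2 CPM in every library. Trim25, a ubiquitin ligase that activates RNA sensing, was near equal at 39.7 ± 13.05 CPM in CD90-negative and 34.8 ± 6.47 CPM in CD90-positive libraries (edgeR adjusted p of 0.674).

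None of 5 sensors of foreign nucleic acid passed the edgeR test as reported here, but Oasl2 and Oas1a passed in some other settings. Oasl2, an oligoadenylate synthetase-like protein, had 22.8, 8.95, 64.7, 27.2 and 3.77 CPM in the CD90-negative libraries of pools 1 to 5, against 52.9, 43.8, 73.6, 35.1 and 34.8 CPM in the CD90-positive libraries. The difference lay between -0.19 and -3.18 on the log2 scale in the 5 pools, with a log2 fold of -1.41 ± 0.44 (SE) and an edgeR adjusted p of 0.0772. Oasl2 was called lower by DESeq2, without the filter on low counts, with the length offset and without pool 3. Oas1a, a synthetase that activates RNase L, was listed at 0 in the CD90-negative libraries of pools 4 and 5 and reached at most 4.43 CPM, so its fitted log2 fold of -2.59 is loose (SE 1.19, edgeR adjusted p of 0.202), and it was called lower by DESeq2 and without the filter. Ifih1, which senses long double-stranded RNA, Eif2ak2, the kinase that halts translation on such RNA, and Zbp1, a sensor of Z-form nucleic acid that triggers necroptosis, had log2 folds of -0.41, -0.17 and -0.42, with edgeR adjusted p values of 0.486, 0.699 and 0.353.

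Among the antiviral effectors, Ifitm3 and Ifi27 fell in CD90-negative myCAFs. Ifitm3, a membrane protein that blocks viral entry from endosomes, had 19.8, 10.3, 96.8, 15.4 and 5.91 CPM in the CD90-negative libraries of pools 1 to 5, against 66.0, 51.7, 111, 56.7 and 46.9 CPM in the CD90-positive libraries. Pool 3 of the CD90-negative fraction stood at the level of the CD90-positive ones and the other 4 were below all of them. The log2 fold was -1.83 ± 0.37 (SE), with an edgeR adjusted p of 0.0155, and the call was lost without the pool block (log2 fold -1.16) and with limma-voom (-1.38). Near-identical family members share reads with Ifitm3 that Salmon divides by its model, so its value carries that uncertainty.

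Ifi27, a small membrane protein induced by type I interferon, had 4.92, 2.85, 9.64, 4.59 and 2.14 CPM in the CD90-negative libraries of pools 1 to 5, against 14.1, 10.7, 14.4, 12.4 and 20.04 CPM in the CD90-positive libraries. The groups did not overlap. Its log2 fold was -1.71 ± 0.37 (SE), with an edgeR adjusted p of 0.0159. Bst2, which tethers budding virions to the cell surface, had 1.20, 1.01, 2.16, 3.84 and 1.92 CPM in the CD90-negative libraries of pools 1 to 5, against 6.06, 7.61, 3.83, 5.03 and 5.70 CPM in the CD90-positive libraries. It was lower in all 5 pools, with a log2 fold of -1.60 ± 0.51 (SE) and an edgeR adjusted p of 0.0715.

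Samd9l, an antiproliferative factor that restricts poxviruses, was the exception. It had 37.9, 54.1, 14.5, 26.3 and 43.2 CPM in the CD90-negative libraries of pools 1 to 5, against 16.7, 19.0, 13.1, 15.2 and 29.2 CPM in the CD90-positive libraries. Every CD90-negative library exceeded its CD90-positive partner although the ranges of the groups overlapped. The log2 fold was 0.84 ± 0.22 (SE), with an edgeR adjusted p of 0.033. The call was lost without the block, with an effective length offset and without pool 1, 2, 4 or 5, while the fold stayed positive in these settings.

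The IFIT proteins, which bind viral RNA lacking host cap marks, had no common direction. Ifit1 had 3.30, 6.34, 4.55, 38.7 and 16.6 CPM in the CD90-negative libraries of pools 1 to 5, against 10.7, 5.45, 5.23, 3.44 and 17.2 CPM in the CD90-positive libraries. The CD90-negative value of pool 4 was far above the others and set the positive log2 fold of 0.22, which was -0.45 without that pool. Ifit2 and Ifit3 had log2 folds of -0.38 and -0.91 (edgeR adjusted p of 0.776 and 0.321). Rsad2, which makes a chain-terminating nucleotide, and Cmpk2, the mitochondrial nucleotide kinase beside it on chromosome 12, stayed at or under 4.72 CPM with log2 folds of -0.54 and -2.45 (edgeR adjusted p of 0.82 and 0.412). Xaf1, a pro-apoptotic factor, and Rtp4, a receptor-transporting protein, had log2 folds of -1.03 and -1.53 (edgeR adjusted p of 0.333 and 0.455).

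Gamma-type genes were led by the guanylate-binding proteins, large GTPases that attack the membranes of intracellular pathogens. Gbp3 had 5.71, 7.31, 3.88, 5.23 and 4.14 CPM in the CD90-negative libraries of pools 1 to 5, against 16.6, 10.6, 10.8, 9.52 and 31.2 CPM in the CD90-positive libraries. No CD90-negative library reached the lowest CD90-positive value. The log2 fold was -1.45 ± 0.35 (SE), with an edgeR adjusted p of 0.025, and the call was also lost without pools 3 and 5 together. Gbp7 had 3.24, 5.50, 5.23, 3.74 and 4.06 CPM in the CD90-negative libraries of pools 1 to 5, against 8.29, 12.6, 8.87, 6.94 and 13.1 CPM in the CD90-positive libraries. These groups did not overlap either, and the log2 fold was -1.18 ± 0.29 (SE), with an edgeR adjusted p of 0.0262, and the call was also lost without pool 2, without pool 4, without pools 3 and 5 together and with the length offset.

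Gbp2, which lies with them on chromosome 3, had 13.4, 5.23, 14.8, 6.51 and 3.29 CPM in the CD90-negative libraries of pools 1 to 5, against 25.6, 11.8, 15.4, 16.9 and 27.8 CPM in the CD90-positive libraries. All 5 pools were lower, pool 3 by 0.05 only on the log2 scale, with a log2 fold of -1.29 ± 0.39 (SE) and an edgeR adjusted p of 0.0588. The guanylate-binding proteins are close paralogs, and how Salmon divided reads among them can move their single values. Cxcl10, a chemokine that draws T cells, had 2.31, 0.168, 2.38, 5.23 and 2.40 CPM in the CD90-negative libraries of pools 1 to 5, against 4.01, 1.98, 3.42, 3.59 and 11.8 CPM in the CD90-positive libraries. It was lower in 4 pools and higher in pool 4, with a log2 fold of -1.23 ± 0.64 (SE) and an edgeR adjusted p of 0.257. Igtp and Irgm1, immunity-related GTPases, had log2 folds of -0.79 and -0.29 (edgeR adjusted p of 0.471 and 0.613).

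**Figure D3:**
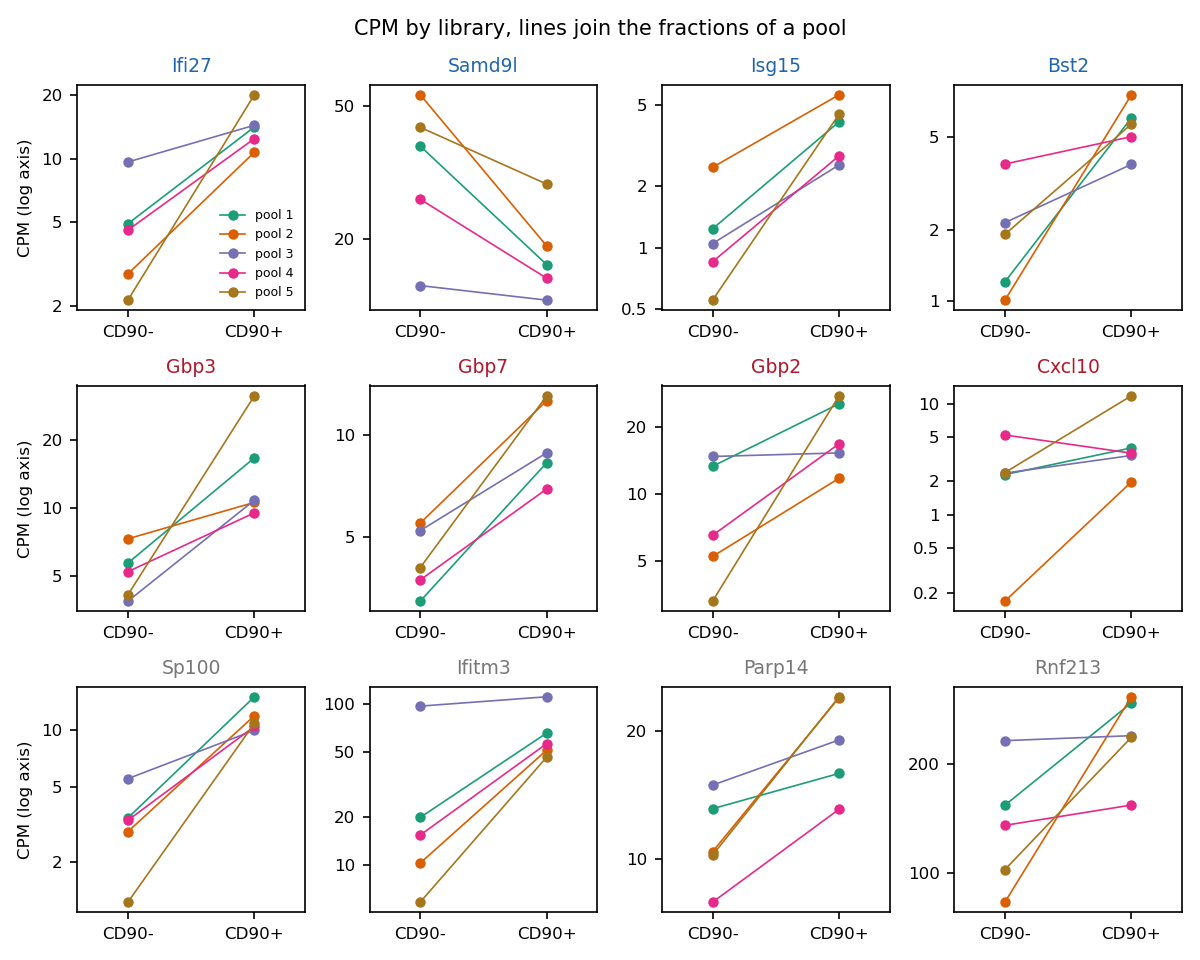
CPM of single genes in each library on a log axis, with the 5 CD90-negative libraries left of the 5 CD90-positive ones and lines joining the libraries of a pool. Sp100, Ifi27, Gbp3 and Gbp7 separate the groups without overlap, whereas Samd9l runs the other way in every pool.

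Of the shared genes, Sp100 fell most. This scaffold of nuclear bodies, which silences foreign DNA, had 3.41, 2.88, 5.50, 3.31 and 1.22 CPM in the CD90-negative libraries of pools 1 to 5, against 15.0, 11.9, 9.94, 10.4 and 10.8 CPM in the CD90-positive libraries. The groups did not overlap in any library. The log2 fold was -1.95 ± 0.37 (SE), with an edgeR adjusted p of 0.00876, the smallest of the set and the only one under 0.01. Mouse Sp100 belongs to a repeated gene family, so that its reads may be divided among copies.

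Rnf213, a very large ubiquitin ligase, had 154, 83.2, 232, 136 and 102 CPM in the CD90-negative libraries of pools 1 to 5, against 295, 307, 240, 154 and 237 CPM in the CD90-positive libraries. It was lower in all 5 pools, with a log2 fold of -0.85 ± 0.26 (SE) and an edgeR adjusted p of 0.0657. Parp14, a mono-ADP-ribosyltransferase, had 13.1, 10.4, 14.9, 7.90 and 10.2 CPM in the CD90-negative libraries of pools 1 to 5, against 15.9, 24.0, 19.0, 13.1 and 24.1 CPM in the CD90-positive libraries. All 5 pools were again lower, with a log2 fold of -0.76 ± 0.23 (SE) and an edgeR adjusted p of 0.0597. Parp9 and Dtx3l, which form a ubiquitin ligase complex, had log2 folds of -0.58 and -0.22, and Ifi35 had -0.76, with edgeR adjusted p values of 0.214, 0.663 and 0.492. Lgals3bp, a secreted galectin-binding glycoprotein, was higher in all 5 pools with 72.9 ± 29.2 CPM in CD90-negative and 50.5 ± 7.83 CPM in CD90-positive libraries, but the log2 fold of 0.45 did not pass the test (edgeR adjusted p of 0.186).

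Within the set, the contrast of type I with gamma-type genes gave no stable difference. Of the 21 type I genes tested, 17 had negative folds, 1 was called lower and 1 higher, and the median log2 fold was -0.94. These calls are 4.76% each, below the 7.05% of all genes called lower and the 5.83% called higher. All 7 gamma-type genes had negative folds, 2 were called lower (28.6%), and the median was -1.18. Of the 10 shared genes, 9 had negative folds, 2 were called lower (20%), and the median was -0.76. The type I median minus the gamma-type median was 0.23 in the fit, and -0.34, -0.60, -0.08, 0.49 and 1.24 in pools 1 to 5. Type I genes were thus the lower group in pools 1, 2 and 3 and gamma-type genes in pools 4 and 5, and the fitted difference turned to -0.12 without pool 5.

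Summed levels of the gene groups were also compared. The 7 gamma-type genes summed to 54.0, 63.3, 78.0, 46.9 and 64.6 CPM in the CD90-negative libraries of pools 1 to 5, against 104, 86.3, 91.5, 93.0 and 138 CPM in the CD90-positive libraries, without overlap. The 22 type I genes summed to 156 to 215 CPM in CD90-negative and 168 to 274 CPM in CD90-positive libraries, and the 10 shared genes to 182 to 443 CPM in CD90-negative and 326 to 497 CPM in CD90-positive libraries, with overlap in both. A sum is set by its most abundant genes, such as Irf1 and Gbp2 for the gamma type and Rnf213 for the shared genes.

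**Figure D4:**
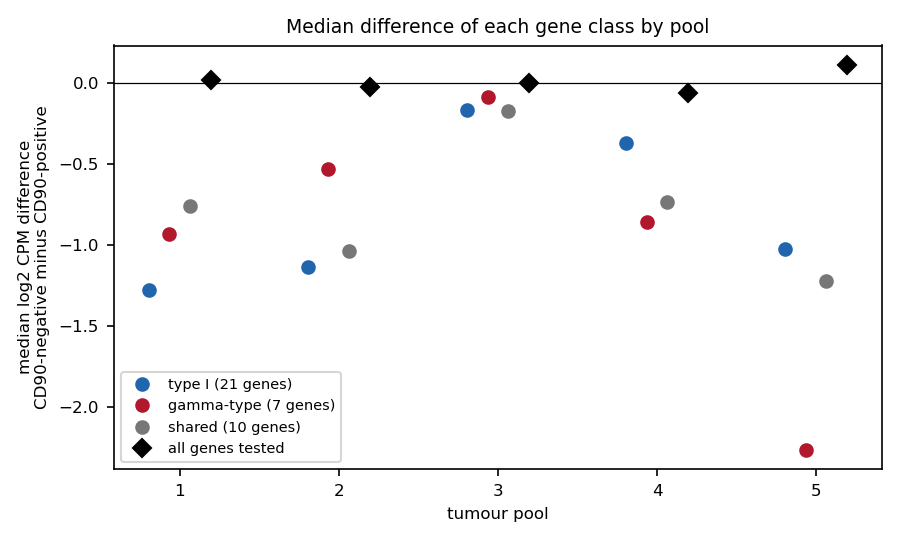
Median log2 difference in CPM, CD90-negative minus CD90-positive, of type I, gamma-type and shared genes and of all genes tested in each of the 5 tumour pools. The 3 gene groups lie below 0 in every pool and near 0 in pool 3, while all genes stay between -0.06 and 0.11, and the order of type I and gamma-type genes changes between pools.

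The pathway upstream of these genes was read from a list of 34 receptors, kinases, factors, sensors, inhibitors and ligands that are not in the set. Of these, 28 were tested, 4 were called lower (14.3%, against 7.05% of all genes), 1 was called higher (3.57%, against 5.83%), and the median log2 fold was -0.11. The 6 ligand genes, Ifnb1, Ifng, Ifna2, Ifna4, Ifnl2 and Ifnl3, were listed at 0 in all 10 libraries. Stat3, which serves many cytokine receptors, had 96.2, 112, 156, 105 and 133 CPM in the CD90-negative libraries of pools 1 to 5, against 165, 192, 178, 159 and 169 CPM in the CD90-positive libraries. The groups did not overlap, and the log2 fold was -0.54 ± 0.14 (SE), with an edgeR adjusted p of 0.035.

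The receptor chains moved in unlike ways. Ifngr1, the ligand-binding chain for interferon gamma, had 43.1, 40.4, 24.99, 29.7 and 51.6 CPM in the CD90-negative libraries of pools 1 to 5, against 17.8, 17.6, 16.96, 22.7 and 40.1 CPM in the CD90-positive libraries. It rose, with a log2 fold of 0.76 ± 0.20 (SE) and an edgeR adjusted p of 0.0327, and was higher in all 5 pools. Ifnar2 of the type I receptor was lower in all 5 pools with a log2 fold of -1.58 ± 0.46 (SE) and an edgeR adjusted p of 0.0599. Ifnar1 and Ifngr2 had log2 folds of -0.22 and 0.16 (edgeR adjusted p of 0.541 and 0.659). Among the adaptors, 2 fell, namely Sting1, which relays cytosolic DNA sensing (log2 fold -1.91, edgeR adjusted p of 0.0197, lower in 4 of 5 pools), and Myd88, which serves Toll-like receptors (-1.04, edgeR adjusted p of 0.02). No gene of this list was called without pool 1, 2 or 4 or without the block (6 to 7 at an unadjusted p under 0.05). Without pool 5 the count was 2. Without pool 3, 5 were called lower and 1 higher (8.05% and 5.5% of all genes).

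A further list of 61 interferon response genes outside the set was also read. Of these, 49 were tested, 39 had negative folds, 5 were called lower (10.2%, against 7.05% of all genes) and 0 higher (against 5.83%), and the median log2 fold was -0.75. At an unadjusted p under 0.05, 21 of the 49 were lower and 0 higher, where 14% and 12.9% of all genes were. DESeq2 called 17 of the 49 lower and 1 higher, where it called 11.8% and 10.6% of all genes. Its 20 tested gamma-type genes had a median of -1.33 with 4 called lower (20%). Its 29 tested type I genes had a median of -0.43 with 1 called lower (3.45%). Unlike in the set, the gamma-type median was the lower one in each pool. In pools 1 to 5 it was -1.09, -1.93, -0.45, -0.77 and -1.91, against -0.29, -0.75, -0.17, -0.62 and -0.45 for type I. This difference was not tested. Serping1, the inhibitor of complement C1, had 75.5, 29.9, 109, 73.3 and 20.4 CPM in the CD90-negative libraries of pools 1 to 5, against 308, 245, 158, 236 and 201 CPM in the CD90-positive libraries, without overlap (log2 fold -2.13 ± 0.39 SE, edgeR adjusted p of 0.0114). Psmb8, a catalytic subunit of the immunoproteasome, Gbp9, a guanylate-binding protein, and Ifi204, a DNA-binding protein of the interferon-inducible family, had log2 folds of -1.33, -1.72 and -1.26 (edgeR adjusted p of 0.0267, 0.0268 and 0.0422). Apol9a had a log2 fold of -2.39 (edgeR adjusted p of 0.00628), while its close paralog Apol9b had 0.23, so that the split of reads between them is uncertain. When single pools were left out, all calls in this list were lower ones. There was 1 without pool 1 (2.38% of all genes called lower), 3 without pool 2 (4.34%) and 8 without pool 3 (8.05%). Leaving out pool 4 gave 6 (4.51%) and leaving out pool 5 gave 2 (5.23%).

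Levels between genes were compared per length, as transcripts per M (TPM) rescaled to nuclear protein-coding genes within each library. Ifitm3 had the highest median in CD90-positive libraries, with 133 TPM in CD90-negative and 529 TPM in CD90-positive libraries, and Irf1 the highest in CD90-negative libraries, with 160 TPM in CD90-negative and 200 TPM in CD90-positive libraries. Lgals3bp followed with 121 TPM in CD90-negative and 107 TPM in CD90-positive libraries, Trim25 with 77.1 TPM in CD90-negative and 77.0 TPM in CD90-positive libraries, and Oasl2 with 71.0 TPM in CD90-negative and 185 TPM in CD90-positive libraries. The ranges of these neighbours overlapped within the CD90-negative libraries, where Ifitm3 spanned 60.0 to 960 TPM. Samd9l stood at 40.7 TPM and rank 6 in CD90-negative libraries, against 16.97 TPM and rank 21 in CD90-positive libraries. Isg15 stood at 9.68 TPM and rank 26 in CD90-negative libraries, against 33.8 TPM and rank 13 in CD90-positive libraries. Rsad2, Cmpk2 and Mx1 were at the bottom in both, at or under 0.713 TPM in CD90-negative and 1.56 TPM in CD90-positive libraries.

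**Figure D5:**
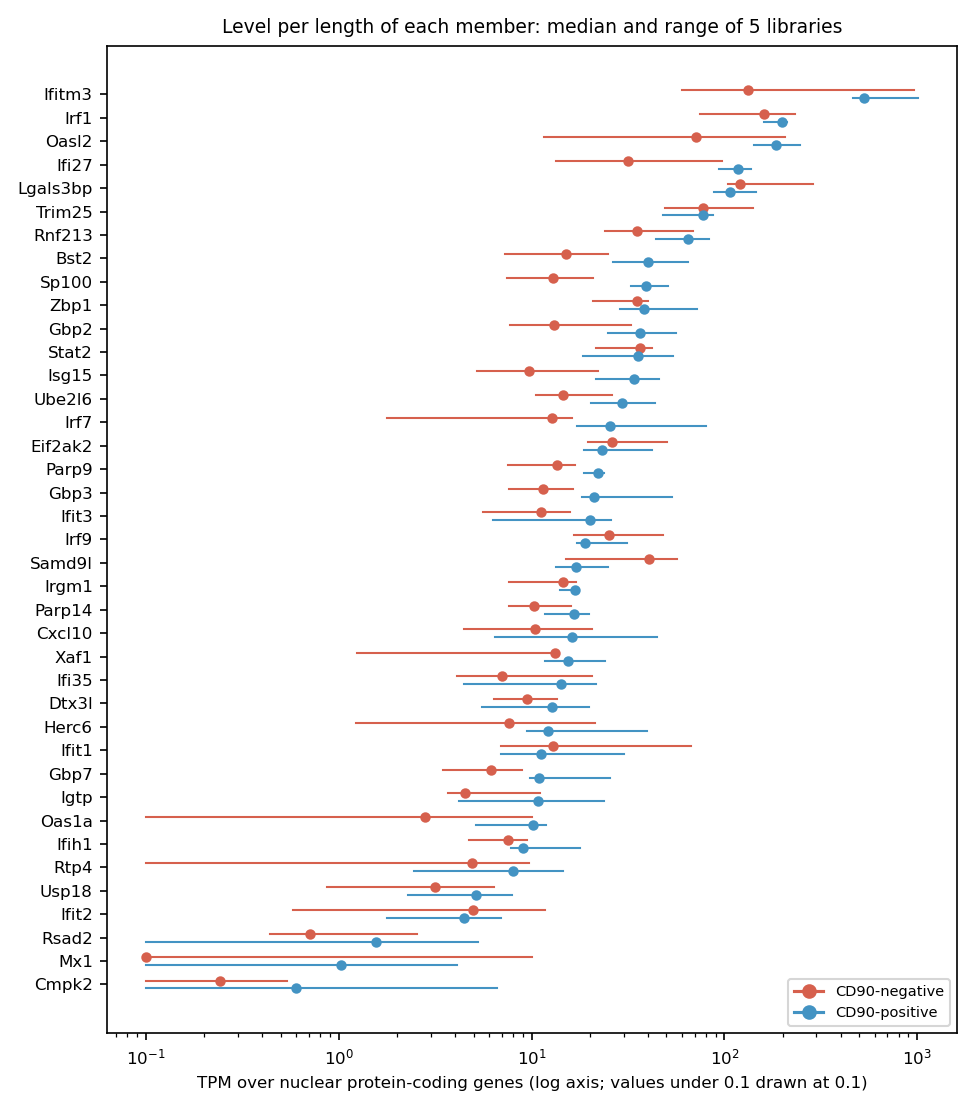
Median rescaled TPM of each gene on a log axis over 5 CD90-negative and 5 CD90-positive libraries, ordered by level. Ifitm3, Irf1, Lgals3bp, Oasl2 and Trim25 are among the highest in both groups, and Samd9l is among the genes whose CD90-negative median is the higher one.

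The folds of genes with and without the promoter motifs were set side by side. The 16 genes with a response element had a median log2 fold of -1.05, with 15 negative and 3 called lower. The 16 genes with a window but no response element had a median of -0.80, with 12 negative, 1 called lower and 1 called higher. Over all genes tested, 7.05% were called lower and 5.83% higher, and counts this small do not separate the motif classes. The 9 genes with a gamma-activated site had a median of -0.79, and the 13 genes with neither motif had -1.02. Ifitm3, Gbp3 and Gbp7, whose windows are printed above, were the called genes with a response element. Sp100, called lower, and Samd9l, called higher, have neither motif in the windows searched.

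Markers of other cell types, which may also hold interferon-stimulated transcripts, were summed in the same libraries. Summed macrophage markers were at 25.01 to 98.4 CPM in CD90-negative and 11.5 to 24.4 CPM in CD90-positive libraries, with Itgam and Mrc1 called higher among 10 tested of 12. Dendritic cell markers summed to 4.17 to 11.2 CPM in CD90-negative and 3.63 to 16.2 CPM in CD90-positive libraries, with Xcr1 and Ccr9 at 0 in all CD90-negative libraries. T and NK cell markers summed to 1.76 to 7.05 CPM in CD90-negative and 0.786 to 3.99 CPM in CD90-positive libraries, with Nkg7 at 0 in all 10 libraries. Summed endothelial markers were at 37.1 to 165 CPM in CD90-negative and 29.0 to 44.0 CPM in CD90-positive libraries, with 3 of 8 called higher. Pericyte markers were at 19.0, 160, 32.7, 16.8 and 12.0 CPM in the CD90-negative libraries of pools 1 to 5. They were at 48.5 to 81.2 CPM in CD90-positive libraries, with none of 6 tested called. Mesothelial markers summed to 154 to 266 CPM in CD90-negative and 185 to 298 CPM in CD90-positive libraries, with 1 of 5 called higher. B cell markers reached at most 1.33 CPM in CD90-negative and 0.606 CPM in CD90-positive libraries. Neutrophil markers reached at most 4.91 CPM in CD90-negative and 4.73 CPM in CD90-positive libraries. The part of these cells in the interferon-stimulated values was not tested.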

How the data were processed

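RNA-seq of 10 libraries, CD90-negative and CD90-positive myCAFs of 5 tumour pools, was analysed. The authors deposited estimated counts, TPM and effective lengths per transcript, made with Salmon 1.9.0 against GRCm39 (mm39), as far as the submitters' processing notes tell. No source used here gives the annotation release or strand setting, so reads of overlapping antisense genes cannot be told apart. Transcript names were matched without version to GENCODE M21, used for names only, which covered 133666 of 144584 transcripts (92.5%). The 10918 others held 3.63 to 8.02% of the counts in CD90-negative and 8.60 to 12.1% in CD90-positive libraries. Estimated counts were summed per gene and rounded. CPM refer to TMM-scaled libraries, and pool differences to log2 CPM with a prior count of 2.

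The fit used TMM scaling, filterByExpr and the robust quasi-likelihood test of edgeR 4.0.16 (R 4.3.3) with the tumour pool as a block, and p was adjusted by Benjamini-Hochberg over 15378 genes, of which 1980 (12.9%) were called. The SE of a log2 fold follows from the F statistic. The block rests on the shared animals in the titles; for pools 1 to 5, the correlation of the paired libraries' deviations from group means was 0.0567, 0.00436, 0.461, 0.0284 and 0.188. The pipeline was tested on simulated data. The p-values set the mean difference between the fractions against its variation from pool to pool. The block takes up differences in level between pools. PCR reads without molecular identifiers are not independent molecules. The alternatives were no block, other size factors and filters, DESeq2 1.42.0, limma-voom 3.58.1, a length offset, protein-coding genes only, unmatched transcripts kept, the mitochondrial ribosomal RNA share as a covariate, a threshold of 0.01, and left-out pools.

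The genes, lists and tests were chosen with earlier results of these data known. All 39 genes are named, with values per library for those called, for the 4 with the smallest p in each group and for a few others chosen after their values were seen (Irf7, Oasl2, Ifit1). Genes of the upstream and further response lists are named where called, apart from values not reported here, together with 4 receptor chains, and Apol9b was added after its value was seen. Promoter windows are RefSeq sequences of GRCm38.p6, since no genome of the authors' build was used.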

Additional observations from a re-analysis of the deposited data

Results flagged for a closer look

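Of 82 sets of 5 libraries examined (each gene's log2 CPM in either fraction, and the group medians), 6 held a library whose gap to its nearest neighbour exceeded 0.71 of the range, where chance flags about 1 in 20. Irf7 was low in the CD90-negative library of pool 2 (log2 CPM -0.382), as was Cxcl10 in the same library (-2.12). Irgm1 was low in pool 4 of the CD90-negative fraction (1.75), which had the fewest nuclear protein-coding counts (3.71 M). The median of the gamma-type genes was low in pool 5 of the CD90-negative fraction (2.05). Ifit3 and Oas1a were low in the CD90-positive library of pool 4 (1.02 and 0.953).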

How the results depend on the processing

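Under the other settings tried, the median log2 fold of the set stayed between -1.21 and -0.73, and of the single-gene values 639 kept direction and side of the threshold, 35 lost a call, 24 gained one and 19 turned sign. Without the replicate block, edgeR called 6.28% of all genes, 4 of the set lower and 0 higher (13 and 2 at an unadjusted p under 0.05), and 0 upstream genes (7 unadjusted). DESeq2 called 22.3% of all genes, 14 of the set lower and 18 of the further response list, and without a filter on low counts 12 and 14 were called. With the mitochondrial ribosomal RNA share as a covariate, edgeR called 0% of all genes and 0 of any list (2 of the set lower, 2 upstream and 4 further response genes at an unadjusted p under 0.05), and the type I minus gamma-type median was 1.05. This share was higher in the CD90-negative library in each of the 5 pools, and the covariate and the fraction cannot be told apart. Without pools 4 and 5, 3.35% of all genes were called, 0 of the set in either direction (11 lower and 1 higher unadjusted), 0 upstream and 0 further response genes, and the type I minus gamma-type median was -0.22. Without pools 3 and 5, chosen after seeing the data, that median was -0.070. Of the further response list, 8 were then called lower and 0 higher, where 6.76% and 4.85% of all genes were. At an adjusted p under 0.01, 4.58% of all genes were called, 1 of the set lower and 0 higher, 0 upstream and 1 further response gene. With the effective length offset, 0 of the set were called higher, 2 upstream genes were called, and the type I minus gamma-type median was -0.083. Leaving out each pool in turn gave 4.37 to 13.6% of all genes called, 0 to 8 of the set lower (the 0 without pool 1, with 11 lower at an unadjusted p under 0.05) and 0 to 1 higher, 0 to 6 upstream and 1 to 8 further response genes, and a type I minus gamma-type median of -0.12 to 0.33. Median TPM of the set as deposited, not rescaled, was 0.355 in CD90-negative and 1.10 in CD90-positive libraries.

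Signs turned with the length offset for Ifit2 (0.10) and Eif2ak2 (0.081); with the covariate for Ifit1 (-3.38), Stat2 (0.79), Irf9 (-0.36), Usp18 (0.85), Rtp4 (0.42), Irf1 (1.07), Irgm1 (0.31), Parp9 (0.19), Dtx3l (1.07) and Zbp1 (0.091); without pool 4 for Ifit1 (-0.45, against at most 0.73 without another pool) and Irf9 (-0.0034, against at most 0.23); without pools 4 and 5 for Ifit1 (-0.58), Irf9 (-0.073) and Eif2ak2 (0.076); and without pools 3 and 5 for Ifit2 (0.25) and Eif2ak2 (0.043). None of these genes was called in any of these settings. The covariate moved the median of all genes to 0.15. The cause of these changes was not tested. Of the 38 tested genes, 3 were listed at 0 in at least 1 library.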
